A study of Mus musculus with 2 samples.

Results

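Gata1 binding was examined around 10 genes of the endothelial and haemangioblast programme, chosen by name: the vascular endothelial growth factor (VEGF) receptors Kdr and Flt1, the Tie receptors Tek and Tie1, the cell surface proteins Cdh5 and Pecam1, the ETS factor Etv2, and the SoxF factors Sox7, Sox17 and Sox18. A peak was assigned to a gene when its midpoint lay in the gene body or within 100 kb of either end, and "below" and "above" a gene mean towards lower and higher coordinates. By this rule the 10 genes, of 21792 protein-coding genes in the gene table, held 6 of the 4135 peaks in the list. Gata1 chromatin immunoprecipitation followed by sequencing (ChIP-seq) had been performed with a rabbit antibody to Gata1 on Runx1-ires-GFP+/Gata1::mCherry+ cells, which the series calls primitive erythroid. These cells carry both reporters and were sorted on day 5 from embryoid bodies, aggregates of differentiating mouse embryonic stem cells. The same population gave the control library, which is titled input chromatin although its antibody field names rabbit IgG. There was 1 ChIP library and 1 control library, and each ChIP pooled cells from several sorts. No control data were analysed here, and whether the peak calls used the control was not stated.

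The peak list gives positions without height, score or p-value, so each site is reported as called or not called, with no replicate and no measure of strength. Read depth is unknown, and a gene without a peak is one where no peak was called, which need not mean that Gata1 was absent. Expression was not measured. As a check of the label, 4 of the 5 red cell genes examined had a peak within 10 kb, beside 16.6% of all protein-coding genes. These were Hba-x, Hbb-y, Klf1 and Epor, and Hbb-bh1 had its nearest peak at 16.1 kb. That peak was also the nearest to Hbb-y, so Hbb-y and Hbb-bh1 are not independent checks. The check cannot tell primitive red cells from other red cells.

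Gata1 is a zinc finger factor that binds GATA sequences and activates red cell genes, often together with Tal1, Lmo2 and Ldb1. Blood and endothelium arise close together in the early embryo, from mesoderm that expresses Kdr, and Etv2 acts at the head of this programme. Endothelial cells keep the VEGF and Tie receptors, VE-cadherin (Cdh5) and Pecam1 (CD31) on their surface, and the SoxF factors act in vessel formation, with Sox7 and Sox17 also active in the haemogenic endothelium from which blood cells emerge.

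Gata1 peaks lay inside Kdr and Flt1, 1 in each gene, and within 100 kb of Tie1 and Sox7, with 2 near each. No peak was called within 100 kb of Tek, Cdh5, Pecam1, Etv2, Sox17 or Sox18. The 4 of 10 genes with a peak within 100 kb stand beside 43.9% of all protein-coding genes, and the 2 of 10 with a peak within 10 kb stand beside 16.6%. Both shares were near the background, so the list of endothelial genes did not stand out by the number of genes with a peak. The 6 peaks came from 2.49 Mb of windows, or 2.41 peaks per Mb (95% exact Poisson interval 0.885 to 5.25, counting error only), and the autosomes as a whole had 1.70 (1.65 to 1.75). With 6 peaks the interval for the windows is wide, and it treats peaks as independent although the 2 near Sox7 were 13.8 kb apart. It contains the autosomal density, but this is not a test, because the genes were chosen with results of these data known.

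**Figure D1:**
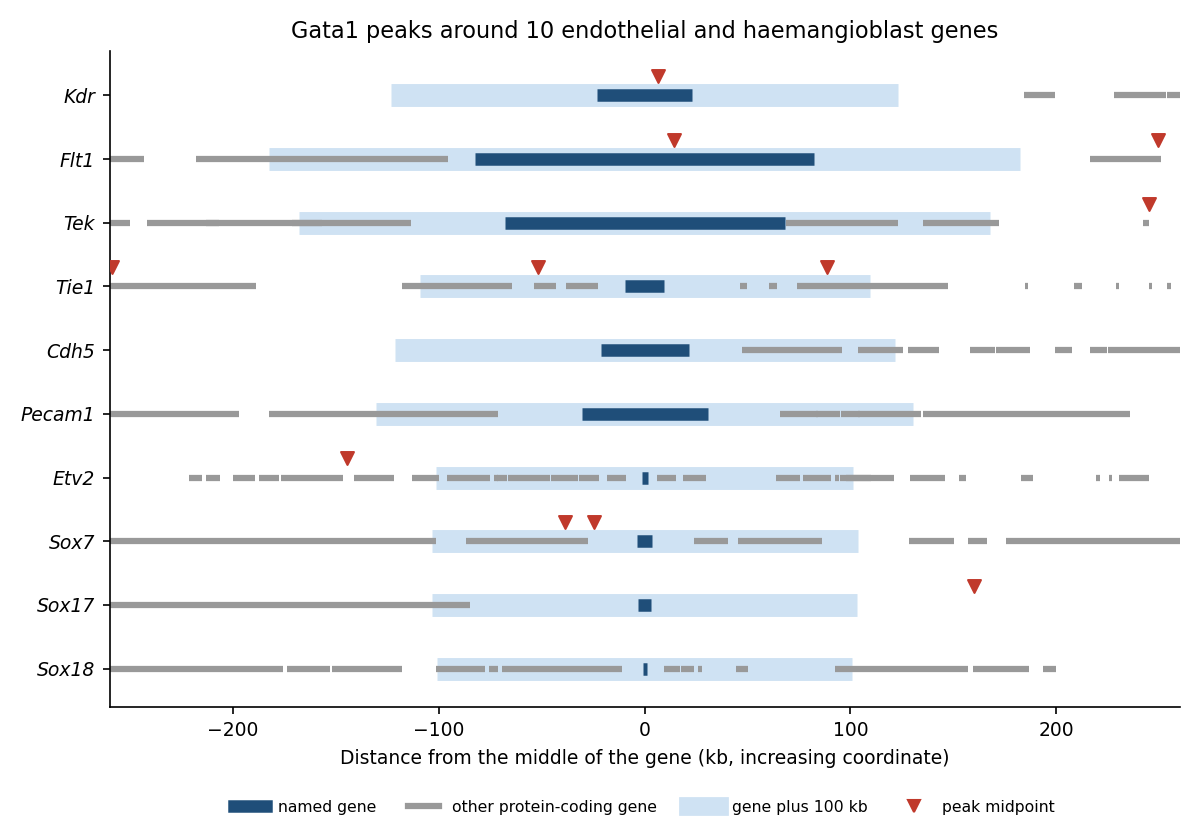
Positions of Gata1 peaks around each of the 10 genes, in kb from the middle of the gene with coordinates increasing to the right. Dark bars are the named genes, grey bars other protein-coding genes, pale bars the gene plus 100 kb and triangles peak midpoints. Peaks lie inside Kdr and Flt1 and beside Tie1 and Sox7. Peaks also lie outside the pale bars of Flt1, Tek, Tie1, Etv2 and Sox17.

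Sequences of 300 bases around annotated starts (250 before and 50 after the start) were found for 5 of the 10 genes in RefSeq, build GRCm38.p6: Kdr, Flt1, Tek, Tie1 and Etv2. They were searched on both strands for the Gata1 recognition sequence in 4 forms, which were AGATAA, its variant AGATAG, the form TGATAA and the form TGATAG. Matches were counted by position, overlaps included. None of these 5 windows overlapped a peak, beside 1.65% of the 32851 start windows in the table. The start windows of the VEGF receptor genes are shown because both genes held a peak far from the start, and that of Tek because it was the window of the 5 that held a match. All are written 5′ to 3′ in the direction of the gene, with the match in capitals.
Kdr: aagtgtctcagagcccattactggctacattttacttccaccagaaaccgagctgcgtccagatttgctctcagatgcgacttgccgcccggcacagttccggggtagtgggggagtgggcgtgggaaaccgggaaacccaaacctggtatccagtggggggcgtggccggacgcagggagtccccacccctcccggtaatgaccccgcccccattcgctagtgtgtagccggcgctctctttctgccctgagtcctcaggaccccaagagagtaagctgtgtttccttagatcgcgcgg
Flt1: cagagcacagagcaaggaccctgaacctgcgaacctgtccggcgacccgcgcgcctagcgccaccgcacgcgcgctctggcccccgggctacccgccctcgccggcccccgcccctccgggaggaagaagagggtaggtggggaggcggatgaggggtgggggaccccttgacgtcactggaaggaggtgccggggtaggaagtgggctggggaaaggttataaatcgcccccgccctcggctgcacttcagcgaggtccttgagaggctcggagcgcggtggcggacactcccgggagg
Tek: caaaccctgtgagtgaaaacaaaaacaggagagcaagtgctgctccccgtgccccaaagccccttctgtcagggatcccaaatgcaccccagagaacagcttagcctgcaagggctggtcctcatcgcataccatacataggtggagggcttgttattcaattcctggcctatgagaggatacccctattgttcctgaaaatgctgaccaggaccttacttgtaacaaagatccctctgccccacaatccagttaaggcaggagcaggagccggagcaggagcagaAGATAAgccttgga
The Kdr window lies at chr5:75978406-75978705 on the minus strand, that of Flt1 at chr5:147725962-147726261 on the minus strand, and that of Tek at chr4:94739039-94739338 on the plus strand. The Tek match, AGATAA, begins 36 bases after the start, in a gene whose nearest peak was 177 kb away. At least 1 match was present in 29.8% of all start windows, and in 43.6% of the 541 windows that overlapped a peak. A match is a description of the letters and does not by itself mark a binding site.

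Kdr encodes VEGF receptor 2, the main signalling receptor for VEGF in endothelium. The gene occupies 75932827 to 75979072 on chromosome 5 (build mm10, here and below) on the minus strand. Its peak, at 75962236 to 75962635, lay 16.0 kb downstream of the annotated start and 29.6 kb from the lower-coordinate end of the gene. Exons were not part of the gene table, so the peak is placed only within the gene body. No other protein-coding gene reached into the Kdr window. The next nearest protein-coding gene to the peak was Srd5a3, at 178 kb, and the next nearest peak was at 382 kb, against a median of 67.8 kb between a peak and its nearest neighbour over the whole list. Of the 10 genes, Kdr was thus the one whose peak stood in a window with no other protein-coding gene and with no other peak close by.

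That nearest neighbouring peak, at 75579901 to 75580300, lay inside Kit, the stem cell factor receptor gene that is the neighbouring receptor tyrosine kinase gene 276 kb below Kdr. Kit and Kdr therefore each held 1 peak in the gene, while Pdgfra, the other receptor gene of this cluster, had none in the gene and its nearest at 240 kb.

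Flt1 encodes VEGF receptor 1, which binds VEGF strongly and signals weakly. It is the longest of the 10 genes, 165 kb at 147561604 to 147726438 on chromosome 5, also on the minus strand. Its peak, at 147657921 to 147658320, lay 67.9 kb downstream of the annotated start. The annotated start nearest to this peak was that of the long noncoding RNA Gm35383, 1.57 kb away. The next protein-coding gene, Pan3, was 110 kb from the peak. Outside the gene, the nearest peaks were 167 kb above it, inside Slc46a3, and 261 kb below it, 0.688 kb from Cdx2.

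Kdr and Flt1 thus shared a single peak inside the gene, well away from the start. A peak inside a gene has that gene as its nearest by construction. Long genes hold a peak more often: a midpoint lay in the gene body of 17.4% of the 4767 protein-coding genes of 40 to 170 kb, against 9.34% of all protein-coding genes and 2.86% of the 7873 shorter than 10 kb. Among the 10 genes, Flt1, Tek, Pecam1, Kdr and Cdh5 fall in the range of 40 to 170 kb, and Etv2, Sox7, Sox17 and Sox18 are shorter than 10 kb. Of the longer genes, Kdr and Flt1 held a peak and Tek, Pecam1 and Cdh5 did not. Whether length accounts for the peaks in Kdr and Flt1 was not tested.

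The Tie receptors had no peak in the gene. Tie1, an orphan receptor that works with Tek, occupies 118471191 to 118489849 on chromosome 4, on the minus strand. Its peaks were at 118428510 to 118428909, 42.5 kb below the gene and so on its downstream side, and at 118568721 to 118569120, 79.1 kb upstream of the start. The downstream peak lay inside Elovl1, which encodes a fatty acid elongase, 0.616 kb from an annotated Elovl1 start and 4.19 kb from Cdc20, a cell cycle gene. The upstream peak lay inside Cfap57, a gene of cilia, and inside the noncoding Gm52677. Ordered by distance from these peaks, Tie1 was protein-coding gene number 6 for the downstream peak and number 5 for the upstream peak. Of the 8 other protein-coding genes that reached into the Tie1 window, 3 had a peak within 10 kb, beside 16.6% of all protein-coding genes. This share reflects the same 2 peaks and is not a separate result. The 2 Tie1 peaks therefore each stood in or beside other genes.

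Tek, the angiopoietin receptor Tie2, occupies 94739086 to 94874976 on chromosome 4, on the plus strand. At 136 kb it is the longest of the genes without a peak. Its nearest peak was 177 kb beyond its higher-coordinate end, at 95052019 to 95052418, inside Jun, an AP-1 factor gene. On the lower side the nearest was 301 kb away. None of the 4 other protein-coding genes that reached into the Tek window had a peak within 10 kb, beside 16.6% of all protein-coding genes. That follows largely from the window holding no peak and is not a separate result.

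The adhesion genes were far from peaks. Cdh5, encoding the junction protein VE-cadherin, occupies 104101613 to 104144504 on chromosome 8, and its nearest peaks were 1027 kb above it, inside Cbfb, which encodes the partner subunit of Runx1, and 7950.4 kb below it. The peak above was separated from Cdh5 by 26 other protein-coding genes. Pecam1, at 106654213 to 106715281 on chromosome 11, encodes an adhesion protein shared by endothelium, platelets and some blood cells. Its nearest peaks were at 324 kb below, inside the muscle sodium channel gene Scn4a, and at 346 kb above, inside the chromatin remodeller gene Bptf. A peak at least as near as that of Cdh5 was found for 87.3% of protein-coding genes, and at least as near as that of Pecam1 for 68.1%.

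Etv2, at 30633616 to 30636509 on chromosome 7, encodes the ETS factor needed for the first endothelial and blood cells. Its window was the most crowded of the 10, with 18 other protein-coding genes. None of these had a peak within 10 kb, beside 16.6% of all protein-coding genes. Because the window held no peak, this was largely fixed in advance and is not a separate result. The nearest peak was 143 kb below Etv2, at 30490248 to 30490647, 1.82 kb from the nephrin gene Nphs1, and on the other side the nearest was 4066 kb away. The Etv2 window was thus rich in genes and without a peak.

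The SoxF genes, which encode closely related factors, differed from each other. Sox7 occupies 63943706 to 63950732 on chromosome 14 and had 2 peaks below it, at 63922289 to 63922688 and 63908521 to 63908920, at distances of 21.2 and 35.0 kb. The peaks were 13.8 kb apart. The farther one lay inside Pinx1, which encodes a telomerase inhibitor, and the nearer one lay between the genes, 2.63 kb from Pinx1. Pinx1 was thus the nearest protein-coding gene to both, and Sox7 the next. At least 2 peaks within 100 kb, as found for Sox7 and Tie1, were found for 21% of protein-coding genes.

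Sox17 occupies 4490928 to 4497426 on chromosome 1. Its nearest peak was 157 kb above it, at 4653828 to 4654227, with no protein-coding gene between them, and the gene nearest to that peak was Mrpl15, at 119 kb. Sox18 occupies 181669837 to 181671640 on chromosome 2, and its nearest peak was 706 kb below it, at 180964039 to 180964438, with 25 other protein-coding genes between them. None of the 10 other protein-coding genes in the Sox18 window had a peak within 10 kb, beside 16.6% of all protein-coding genes. With no peak in the window, this too was largely fixed in advance. From nearest to farthest peak the SoxF genes were thus Sox7, Sox17 and Sox18.

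**Figure D2:**
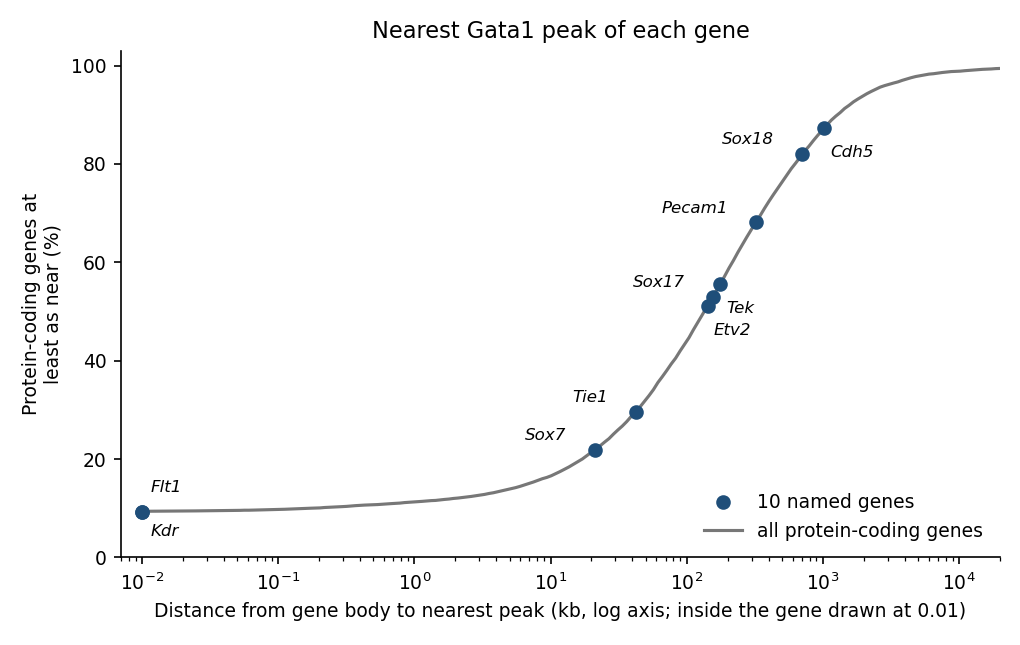
Distance from each gene body to its nearest Gata1 peak (x axis, kb, log scale, with genes that hold a peak drawn at the left edge) against the percentage of protein-coding genes with a peak at least as near (y axis). The grey line is all 21792 protein-coding genes and the points are the 10 named genes, which spread along the line between 9.3% for Kdr and Flt1 and 87.3% for Cdh5.

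Ordered by distance, the 10 genes were Kdr and Flt1 (peak in the gene), Sox7 (21.2 kb), Tie1 (42.5 kb), Etv2 (143 kb), Sox17 (157 kb), Tek (177 kb), Pecam1 (324 kb), Sox18 (706 kb) and Cdh5 (1027 kb). Their median was 150 kb, against 135 kb over all protein-coding genes. They spread along the whole distribution and did not gather at its near or far end.

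The count depended on the window. With 50 kb it was 4 of 10 genes, beside 32% of protein-coding genes, and with 200 kb it was 7 of 10, beside 58.2%. With 500 kb it was 8 of 10, beside 76.2%. Tek, Etv2 and Sox17 entered between 100 and 200 kb. When a peak was given to its nearest protein-coding gene alone, Kdr and Flt1 were left, 2 of 10 beside 14.1% within 100 kb and beside 12.2% within 10 kb. Counting any overlap of the interval with the 100 kb window left 4 of 10, beside 44%. Of the 53 other protein-coding genes that reached into the 10 windows, 4 had a peak within 10 kb, beside 16.6% of all protein-coding genes. All 4 were near Tie1 or Sox7. Most of the 53 reached into windows without a peak, so this share largely restates which windows held peaks.

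**Figure D3:**
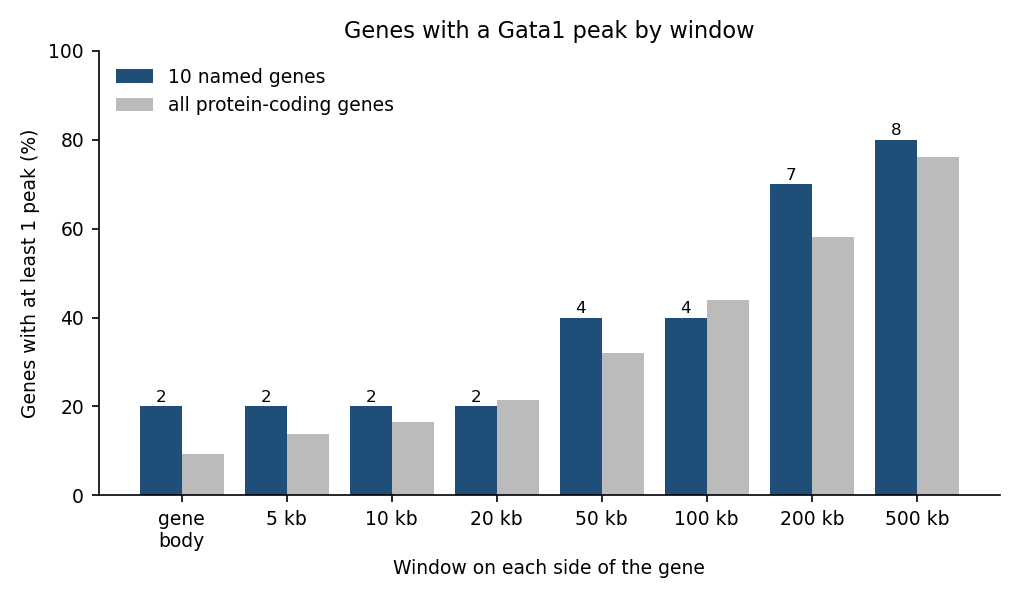
Percentage of genes with at least 1 Gata1 peak (y axis, from 0) in windows of growing size around the gene (x axis) for the 10 named genes and for all protein-coding genes; numbers above the dark bars are genes of 10. The count is 2 up to 20 kb, 4 at 50 and 100 kb, 7 at 200 kb and 8 at 500 kb, on either side of the background.

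Other genes of the same pathways were examined in the same way. Of 16 genes for VEGF ligands, co-receptors and signalling, 6 had a peak within 10 kb and 8 within 100 kb (37.5% and 50%), beside 16.6% and 43.9% of all protein-coding genes. The genes of this list had a median length of 54.2 kb, against 17.2 kb over all protein-coding genes. Whether length accounts for these shares was not tested. Prkca, encoding protein kinase C alpha, held 5 peaks in the gene. It occupies 107933387 to 108343888 on chromosome 11 and is longer than 170 kb. Nrp2, a VEGF co-receptor gene, and Shb, an adaptor gene, held 1 peak each. Vegfb had 6 peaks within 100 kb, the nearest at 2.97 kb, and Rasip1, which acts in vessel tube formation, had 2, the nearest at 4.88 kb. Flt4, the remaining VEGF receptor gene, had its nearest peak at 329 kb, Vegfa at 170.1 kb, and Nrp1 at 842 kb. Among the 3 VEGF receptor genes Kdr, Flt1 and Flt4, a peak in the gene was therefore found in the first pair.

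Of 8 angiopoietin and Tie regulator genes, 1 had a peak within 10 kb and 5 within 100 kb (12.5% and 62.5%), beside 16.6% and 43.9% of all protein-coding genes. The peak within 10 kb lay in Svep1, encoding an extracellular protein of lymphatic vessels. Angpt2, which encodes a Tek ligand, had its nearest peak at 95.2 kb and Angpt1, the activating ligand, at 584 kb. Ptprb, encoding the phosphatase that restrains Tek, had its nearest at 553 kb.

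Of 10 genes for endothelial Notch signalling, 2 had a peak within 10 kb and 7 within 100 kb (20% and 70%), beside 16.6% and 43.9% of all protein-coding genes. Hes1, a Notch target, had 3 peaks within 10 kb, 1 of them in the gene. Hey1, another target, had 3 within 100 kb, the nearest at 2.79 kb. The Notch ligand genes differed: Jag2 had 4 peaks within 100 kb, the nearest at 20.6 kb, and Jag1 had its nearest peak at 1381 kb.

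Of 15 ETS factor genes, 6 had a peak within 10 kb and 9 within 100 kb (40% and 60%), beside 16.6% and 43.9% of all protein-coding genes. A peak lay in the gene body of 6 of the 15 (40%), the same 6 genes. The background shares were 9.34% of all protein-coding genes and 17.4% of those of 40 to 170 kb. The median length of the ETS genes was 58.3 kb. Elf1 held 4 peaks in the gene, Etv6 held 3 and Fli1, which acts in megakaryocytes and endothelium, held 2. Ets1 and Elf2 held 1 each, with 4 and 8 within 100 kb. Fli1 and Ets1 lie close together on chromosome 9 and their 100 kb windows overlap, so their peaks within 100 kb can be shared. Erg, an endothelial and stem cell ETS gene, had its nearest peak at 275 kb. Like Etv2, Erg had none within 100 kb.

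Of 23 genes for endothelial adhesion and surface proteins, 5 had a peak within 10 kb and 13 within 100 kb (21.7% and 56.5%), beside 16.6% and 43.9% of all protein-coding genes. Plvap, encoding a protein of capillary openings, had a peak 0.142 kb away. Vwf, encoding von Willebrand factor, held 1 peak in the gene, and so did Egfl7, which encodes a secreted endothelial protein. Podxl and Eng, encoding podocalyxin and the TGF-beta co-receptor endoglin, each had 4 within 100 kb, the nearest at 4.98 and 11.6 kb. Cd93 and Clec14a had their nearest at 1926 and 720.1 kb.

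For contrast, 11 of 15 genes of the Tal1 complex and its partners had a peak within 10 kb and 13 had one within 100 kb (73.3% and 86.7%), beside 16.6% and 43.9% of all protein-coding genes. Zfpm1, the FOG-1 gene, held 8 peaks, Gata2 had 7 within 100 kb and Cbfa2t3 had 5. The median distance to the nearest peak was 0 kb for these genes, which means that it lay in the gene, against 150 kb for the 10 endothelial genes. No test was made between the lists, because the genes of both were chosen with results of these data known.

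**Figure D4:**
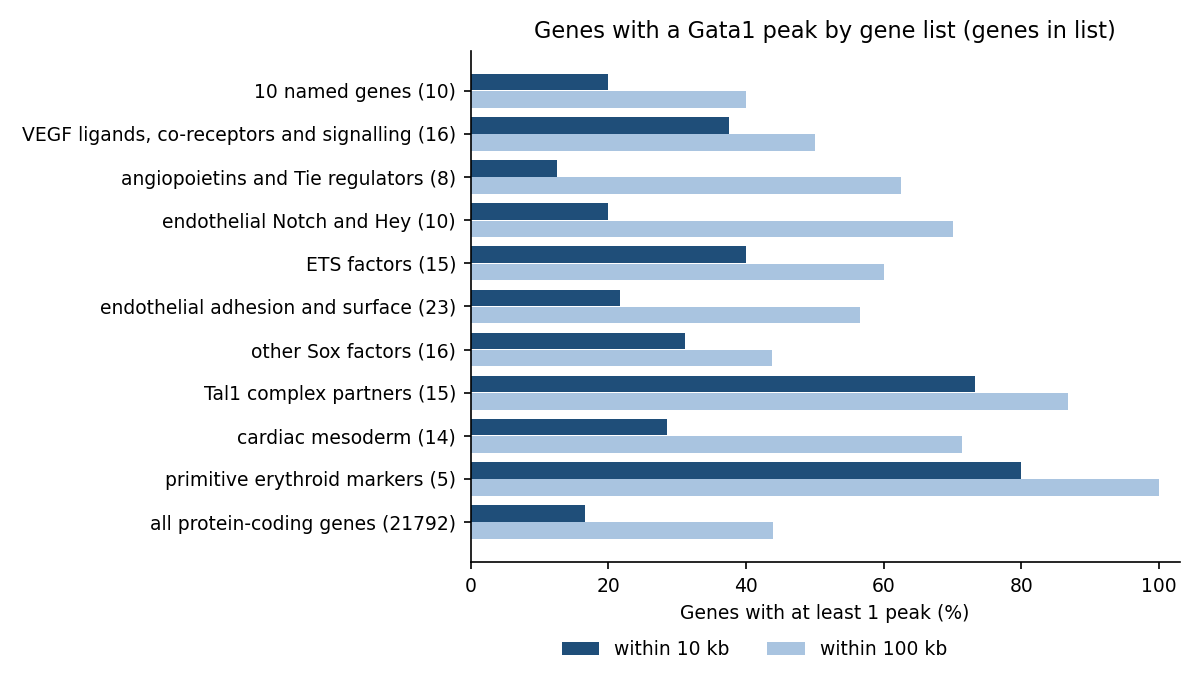
Percentage of genes with at least 1 Gata1 peak within 10 kb (dark bars) and within 100 kb (pale bars) for each gene list (y axis, number of genes in parentheses; x axis from 0). The 10 named genes, at 20% and 40%, sit near all protein-coding genes at 16.6% and 43.9%, and the Tal1 complex partners sit at 73.3% and 86.7%.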

How the data were processed

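The deposited file holds peak positions (chromosome, start and end) for the Gata1 ChIP library, with no other value. Per the submitters' processing notes, Bowtie2 2.0.6, MACS2 2.0.10 and build mm10 were used by the authors; thresholds, the use of the control and the step that made every interval 400 bp wide were not given in the sources used here. Gene positions came from RefSeq assembly GRCm38.p6 (mm10), leaving out entries that end below 3 Mb on any chromosome but the Y and the mitochondrial one, which were taken for scaffold coordinates. Strand and starts came from the RefSeq start windows. Midpoints were assigned to genes with Python 3.11.15, numpy 2.4.6 and pandas 2.3.3, and the assignment was tested on simulated data. Poisson intervals used scipy 1.17.1.

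All results are descriptions. The 10 genes and the other lists were chosen with earlier results of these data known. Named from each other list were up to 5 genes with the most peaks within 100 kb and up to 3 with the farthest nearest peak; Kit, Flt4, Vegfa, Egfl7, Sox2, the label check genes and genes neighbouring a peak or a gene of the 10 were named outside that rule. One planned label check gene is not reported here. The planned motif search inside peaks was not run, since it needs a genome sequence not used here.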

Additional observations from a re-analysis of the deposited data

How the results depend on the processing

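The number of the 10 genes with a peak within 100 kb was 4 and the number of peaks was 6. With a 200 kb window they were 7 and 10, with the gene body alone 2 and 2, and with peaks given to their nearest protein-coding gene alone 2 and 2; a wider or narrower window and a stricter assignment change these counts by construction. A 50 kb window gave 4 genes and 5 peaks, and counting any overlap of the interval changed neither number. The count within 10 kb was 2 under each of the 4 alternatives run for it. With all 49640 genes of the table as background, the share within 10 kb was 10.8% in place of 16.6%, and within 100 kb it was 35.7% in place of 43.9%. No paired analysis was possible because the series has 1 ChIP library and the control has no file here. The motif alternatives (AGATAA alone and the central part of each peak) were not run. Without read counts, the effect of depth on these calls could not be assessed.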

Other observations

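Sox genes outside the SoxF group had peaks within 10 kb in 5 of 16 cases and within 100 kb in 7 of 16 (31.2% and 43.8%), beside 16.6% and 43.9% of all protein-coding genes. Sox6, whose protein acts in red cell maturation and silencing of embryonic globin genes, held 2 peaks in the gene. Sox5 and Sox13 held 1 each, Sox12 had its nearest peak at 1.45 kb, and Sox2, the pluripotency factor gene, at 6.44 kb. Sox6 (115470872 to 116040776 on chromosome 7) and Sox5 (143828425 to 144782287 on chromosome 6) are longer than 170 kb. Long genes hold a peak more often, as described above. Sox9 and Sox3 had their nearest at 893 and 3592 kb. Sox2 was named after its value was seen.

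Genes of cardiac mesoderm, the sister fate of blood and endothelium, had a peak within 10 kb in 4 of 14 cases and within 100 kb in 10 of 14, beside 16.6% and 43.9% of all protein-coding genes. Gata6 had 3 peaks within 10 kb, 1 of them in the gene. Bmp4 held 1 peak in the gene, and Hand2 and Isl1 had their nearest at 4.17 and 4.22 kb. Gata4 had 3 within 100 kb, the nearest at 34.0 kb. Hand1 and Mef2c had their nearest at 121 kb each.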
